A study of Mus musculus with 6 samples.

Results

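Interferon-induced genes and their regulators were taken from the expression table of mouse epididymal fat by symbol alone: the STAT and IRF transcription factors, the IFIT, IFITM, OAS, GBP, IRG and Ifi families, and Ifih1, Isg15, Isg20, Usp18, Rsad2, Bst2, Xaf1, Mx1 and Mx2. The rule found 88 of the 22322 genes in the deposited table, and no measured value entered it. Of the 88, 75 passed the filter on low counts and were tested. The other 13 had between 0 and 47 counts summed over the 6 libraries. They were Gbp2b, Ifi202b, Ifi213, Ifi214, Ifi27l2b, Ifi44l, Ifit1bl2, Ifitm5, Ifitm7, Oas1d, Oas1e, Oas1f and Oas1h, and Ifi44l and Oas1h had no count in any library. The symbols also take in Irf2bp1, Irf2bp2 and Irf2bpl, named for binding to IRF2, and Isg20l2, a nucleolar exonuclease; these are not classical interferon targets.

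The study compared CD44-KO mice with wild type mice, 3 libraries each, to learn the function of CD44, a surface receptor for hyaluronan, in white fat. Both groups ate a high fat diet for 17 weeks, no lean group was analysed here, and mRNA was sequenced from the epididymal fat pad (eWAT). The labels give neither strain, age nor the knockout allele, and they do not say that each library is a separate animal, so the p-values measure the spread between these libraries, which may in part be technical.

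Interferons are secreted proteins whose receptors activate JAK kinases, which phosphorylate STAT proteins. Type I interferons act through a complex of STAT proteins with IRF9, which binds the interferon-stimulated response element (ISRE), and interferon gamma acts through STAT dimers, which bind the gamma-activated site (GAS). The genes switched on encode antiviral proteins, GTPases that act on intracellular pathogens, and further STAT and IRF factors. Obese fat contains many macrophages beside adipocytes, endothelial cells and stromal cells, and most cell types can respond to interferon. In RNA of whole tissue, fewer cells of a type and less RNA per cell cannot be told apart.

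The libraries held between 15543317 and 17790847 expected counts in CD44 KO and between 16692760 and 18765009 in wild type. Cd44 had 28, 50 and 34 counts in CD44 KO replicates 1 to 3 and 3091, 10580 and 6000 counts in wild type replicates 1 to 3, as the labels have it. Adipocyte markers were abundant throughout, with 12 of 12 tested and a summed level of 35930 to 55140 CPM (counts relative to library size, TMM scaled) in CD44 KO and 18400 to 34530 CPM in wild type. The CD44 KO libraries stood apart from each other. The summed level of 15 macrophage markers was 4227, 279.6 and 844.2 CPM in CD44 KO replicates 1 to 3, against 3776, 8717 and 6535 CPM in wild type replicates 1 to 3, so that CD44 KO replicate 1 lay within the wild type range. CD44 KO replicate 2 carried transcripts of the epididymis, such as Crisp1 with 160218 counts there and 12 to 28 counts in each other library.

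Between CD44 KO and wild type fat, the interferon genes as a whole were called no more often than genes in general by edgeR and DESeq2. The edgeR quasi-likelihood test called 0 of the 75 at a Benjamini-Hochberg adjusted p under 0.05, the threshold used throughout, where it called 2.62% of all 13829 genes tested (1.74% higher and 0.882% lower in CD44 KO). At an unadjusted edgeR p under 0.05 stood 8 members with higher and 10 with lower values in CD44 KO, 24.0% of the members, against 31.0% of all genes (16.3% higher and 14.7% lower). DESeq2 called 4 higher and 9 lower, 17.3% of the members, where it called 19.0% of all genes (9.62% higher and 9.38% lower). At an FDR under 0.05 in the authors' deposited table, 3 of the 88 were higher and 8 lower, which is 12.5% of them, against 12.0% of all genes listed (6.07% higher and 5.94% lower). The median log2 fold change, CD44 KO over wild type, was 0.03 over the 75 members and 0.03 over all genes tested, with 40 members above 0 and 35 below. The groups did not overlap for 10 members with higher and 13 with lower values in CD44 KO, 30.7% of the members, where 37.8% of all genes did not overlap (19.7% higher and 18.1% lower).

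Which members were called depended on single libraries. Without CD44 KO replicate 1, the library with wild type levels of macrophage markers, edgeR called 2 members higher (Stat5a and Irf2bp1) and 9 lower (Ifi204, Ifi205, Ifi207, Ifi211, Ifi30, Irf5, Irf8, Oas1a and Oas1g). That is 14.7% of the members, where 16.8% of all genes were called in the same fit (7.13% higher and 9.65% lower). Without wild type replicate 1 it called Stat5a higher and Ifi205 lower, 2.67% of the members, where it called 2.18% of all genes (1.74% higher and 0.435% lower). Without any single one of the remaining libraries it called 0 members, where the share of all genes called was 0.714% with CD44 KO replicate 2 left out and 0.0493% with CD44 KO replicate 3 left out. It was 0.0633% when wild type replicate 2 was omitted and 0.0% when wild type replicate 3 was.

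**Figure D1:**
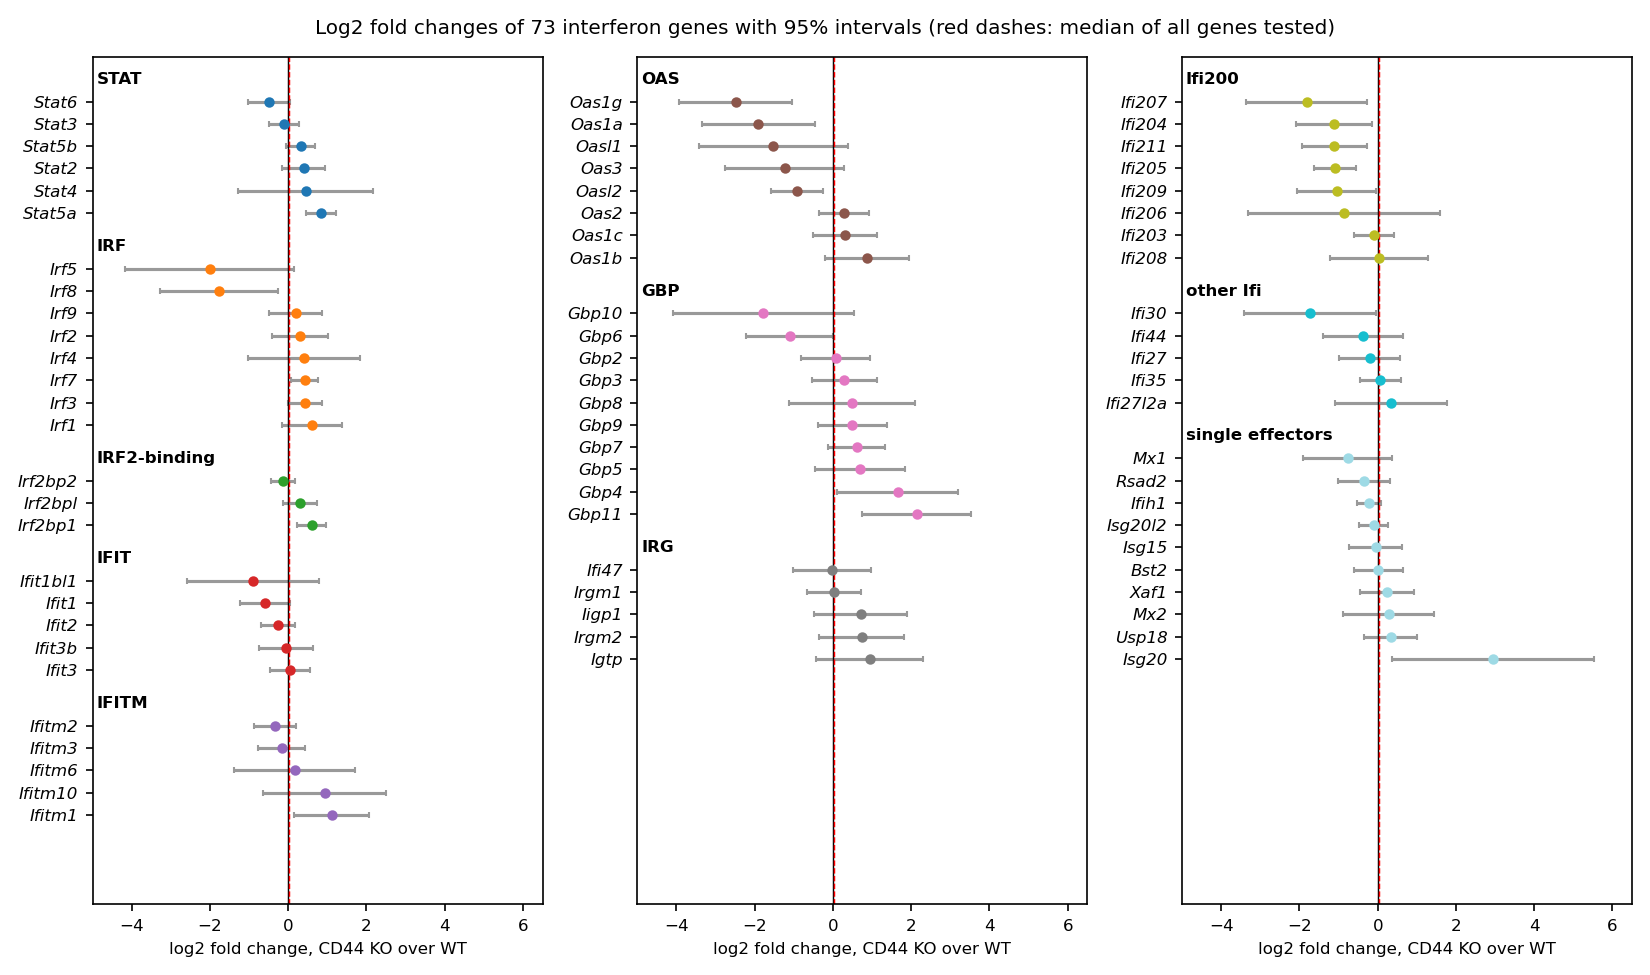
Log2 fold change (CD44 KO over WT, x axis) of 73 tested interferon genes, grouped by family, with its 95% interval; the red dashes mark the median of all genes tested, 0.03. Of 8 Ifi200 genes 7 and of 8 OAS genes 5 lie left of 0, of 10 GBP genes 8 lie right of it, and Isg20 has the largest positive value shown, with a wide interval.

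Beneath that level average the family medians lay on both sides of 0, and the differences between families were not tested. The OAS and Ifi200 families had medians of -1.08 and -1.07, and the GBP and IRG families of GTPases had medians of 0.49 and 0.71. The STAT, IRF, IFIT and IFITM families had medians of 0.32, 0.40, -0.26 and 0.17, the other Ifi genes -0.21, and the 10 single effector genes -0.02. The 3 CD44 KO libraries did not move together either. CD44 KO replicate 3 held the highest value of the 6 libraries for 32 of the 75 members, 42.7%, where it did so for 24.3% of all genes tested. CD44 KO replicate 2 held the lowest value for 26 members, 34.7%, against 25.2% of all genes.

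**Figure D2:**
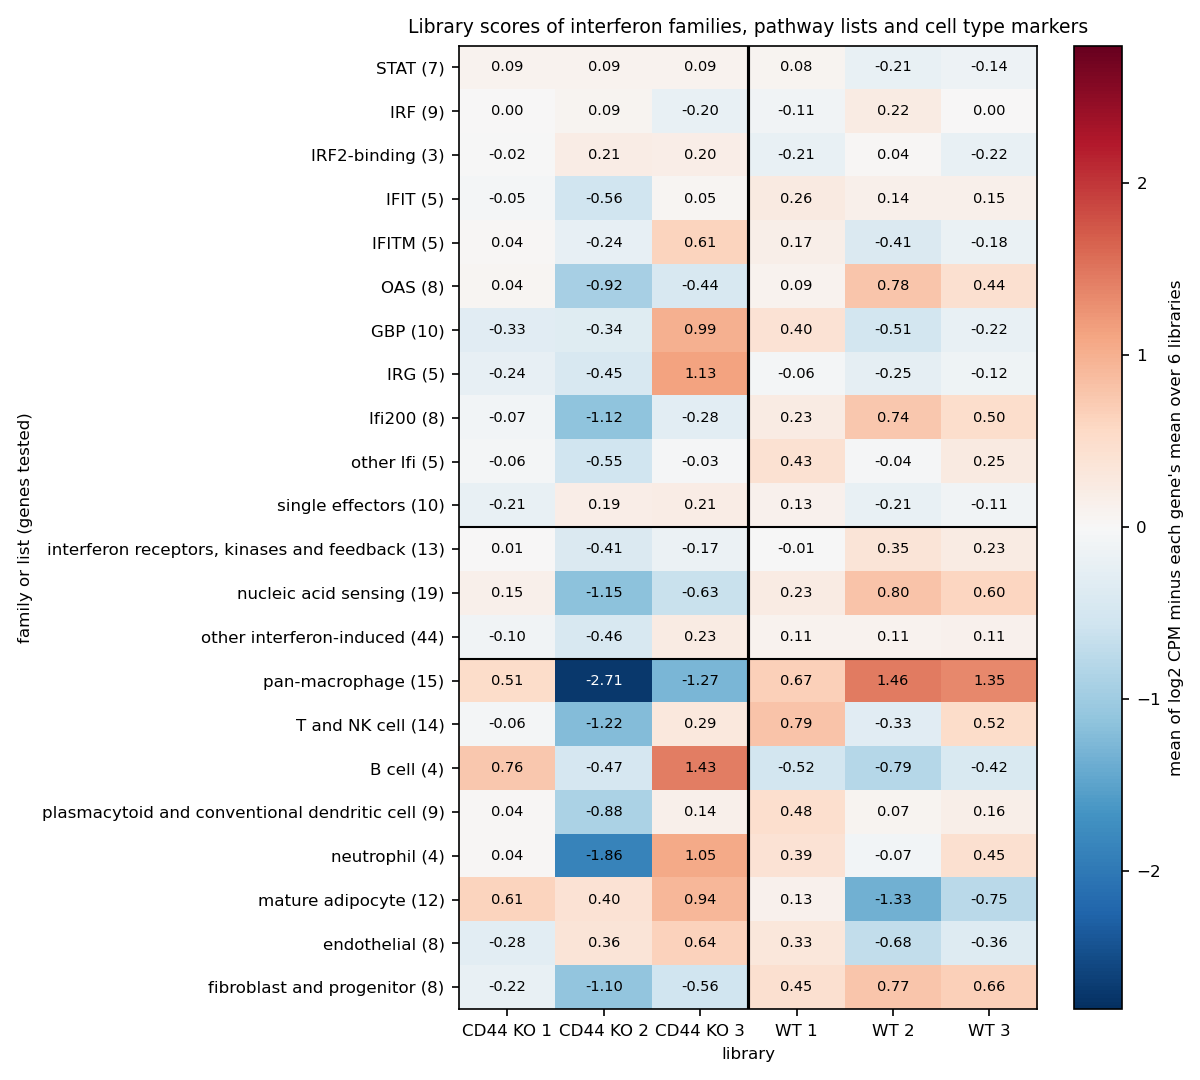
Library scores, the mean over tested genes of log2 CPM less each gene's mean over the 6 libraries, for interferon families (top), pathway lists (middle) and cell type markers (bottom; epididymis genes are left out), with CD44 KO 1 to 3 left of WT 1 to 3. GBP and IRG scores are 0.99 and 1.13 in CD44 KO 3, while OAS, Ifi200 and macrophage scores are lowest in CD44 KO 2, at -0.92, -1.12 and -2.71.

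The interferons themselves were hardly detected. Of 21 interferon genes 18 had no count in any library, among them Ifnb1 and each interferon alpha gene in the list, and a count of 0 allows a level of up to 0.193 CPM in CD44 KO and up to 0.18 CPM in wild type libraries. Ifng, the gene of interferon gamma, had 2, 0 and 1 counts in CD44 KO replicates 1 to 3 and 0 in each wild type library. Ifne had 2 counts, both in CD44 KO replicate 2, and Ifnz had 0 in CD44 KO against 3, 0 and 2 in wild type replicates 1 to 3. A difference in the ligands was not detectable at this depth. Such limits cover counting error only, because PCR copies cannot be told from separate molecules here.

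Genes for the receptors and kinases mostly had lower values in CD44 KO, none of them called by edgeR with all libraries. Of 13 tested genes for receptors, kinases and feedback inhibitors 9 had negative log2 fold changes, with a median of -0.54. The edgeR test called 0 and DESeq2 4 of them, and at an unadjusted edgeR p under 0.05 stood 1 higher and 6 lower. DESeq2 called 19.0% of all genes, and 31.0% stood at an unadjusted edgeR p under 0.05 (16.3% higher and 14.7% lower). Jak1, the kinase that serves the receptors of type I interferon and of interferon gamma alike, had the lowest p of the list. Jak1 had 186, 172 and 146 CPM in CD44 KO replicates 1 to 3, against 225, 297 and 252 CPM in wild type replicates 1 to 3. Each CD44 KO library lay below each wild type library (log2 fold change -0.62 with an SE of 0.18, edgeR adjusted p 0.0948). The chains of the interferon gamma receptor parted: Ifngr2 averaged 45.4 ± 21.0 CPM in CD44 KO and 98.9 ± 21.2 CPM in wild type and Ifngr1 averaged 281 ± 50.5 CPM in CD44 KO and 201 ± 23.0 CPM in wild type (SD, n = 3 each; both chosen after their values were seen).

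Genes for sensors of foreign nucleic acid also mostly had lower values in CD44 KO. Of 19 tested sensor and adaptor genes 18 had negative log2 fold changes (median -0.78). The edgeR test called 0 and DESeq2 3, and 1 higher and 7 lower stood at an unadjusted edgeR p under 0.05. Over all genes the DESeq2 share was 19.0%, and the unadjusted edgeR shares were 16.3% higher and 14.7% lower. Sting1, the adaptor of the cytosolic DNA sensor, had the lowest p. Sting1 had 18.2, 12.3 and 16.1 CPM in CD44 KO replicates 1 to 3, against 27.7, 32.6 and 30.2 CPM in wild type replicates 1 to 3. Its groups were fully separate (log2 fold change -0.96 with an SE of 0.19, edgeR adjusted p 0.0529). The endosomal RNA receptors Tlr7 and Tlr8 were chosen after their values were seen. Tlr7 had 32.0, 1.80 and 7.32 CPM in CD44 KO replicates 1 to 3, against 39.1, 72.7 and 59.7 CPM in wild type replicates 1 to 3. Tlr8 had 38.3, 1.08 and 2.59 CPM in CD44 KO replicates 1 to 3, against 42.0, 113 and 89.2 CPM in wild type replicates 1 to 3. For both, CD44 KO replicate 1 lay just below wild type replicate 1 and CD44 KO replicate 2 was the lowest library. Their log2 fold changes were -2.06 and -2.54, neither of them called (edgeR adjusted p 0.186 for Tlr7, 0.217 for Tlr8). The macrophage marker sums given above have the same order of CD44 KO libraries, and so do the sums of the sensor list (692.1, 347.2 and 459.9 CPM in CD44 KO, against 725.6, 1181 and 985.3 CPM in wild type) and of the receptor list (980.8, 868.9 and 902.6 CPM in CD44 KO, against 1074, 1353 and 1234 CPM in wild type). Other marker lists had this order too. The 8 fibroblast and progenitor markers summed to 2663, 945 and 1909 CPM in CD44 KO, against 4538, 6230 and 5428 CPM in wild type. The 9 tested dendritic cell markers summed to 875.1, 535.6 and 794.6 CPM in CD44 KO, against 1140, 923 and 1306 CPM in wild type. T and NK cell, B cell, neutrophil, adipocyte and endothelial sums were highest in CD44 KO replicate 3 among the CD44 KO libraries. The part of the macrophage, fibroblast and dendritic cell markers in the receptor and sensor values was not tested. Mavs, the adaptor of the RIG-I pathway, was the member of this list with higher values, at 59.4 ± 5.71 CPM in CD44 KO and 44.9 ± 1.90 CPM in wild type (SD, n = 3 each; edgeR adjusted p 0.111). Without CD44 KO replicate 1 edgeR called 7 genes of this list and 3 of the receptor list, where it called 16.8% of all genes.

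Among the STAT genes Stat5a had the lowest p of all 75 members. STAT5 proteins carry signals of growth hormone, prolactin and several cytokines and take part in adipocyte differentiation. Stat5a had 45.1, 51.7 and 53.5 CPM in CD44 KO replicates 1 to 3, against 32.8, 25.3 and 26.4 CPM in wild type replicates 1 to 3. Each CD44 KO library lay above each wild type library, yet the gene missed the threshold (log2 fold change 0.83 with an SE of 0.16, edgeR adjusted p 0.0522). In the authors' deposited table its log2 fold change was 0.76 with an FDR of 0.00106. Its paralog Stat5b, next to it on chromosome 11, also had no overlap between the groups, at 72.5 ± 11.1 CPM in CD44 KO and 58.0 ± 3.31 CPM in wild type (SD, n = 3 each; log2 fold change 0.32, edgeR adjusted p 0.204). Stat5a overlaps Stat3 on the opposite strand, and without stated strandedness reads there cannot be assigned to either.

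Stat2, Stat3 and Stat6 overlapped between the groups. Stat2, which belongs to the type I complex, had a log2 fold change of 0.39, and Stat3, which carries interleukin 6 and leptin signals, -0.11 (edgeR adjusted p 0.274 and 0.664). Stat6 carries interleukin 4 signals. It averaged 116 ± 28.6 CPM in CD44 KO and 164 ± 27.1 CPM in wild type (SD, n = 3 each; log2 fold change -0.49, edgeR adjusted p 0.193).

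Among the 9 IRF genes the myeloid factors Irf8 and Irf5 had lower values in CD44 KO. Irf8 directs the development of monocytes and dendritic cells. Irf8 had 44.0, 7.15 and 15.7 CPM in CD44 KO replicates 1 to 3, against 67.2, 82.3 and 77.7 CPM in wild type replicates 1 to 3. No CD44 KO library reached the wild type range (log2 fold change -1.76 with an SE of 0.62, edgeR adjusted p 0.125). Irf5 drives inflammatory genes in macrophages. Irf5 had 60.4, 4.08 and 18.2 CPM in CD44 KO replicates 1 to 3, against 66.9, 147 and 118 CPM in wild type replicates 1 to 3. CD44 KO replicate 1 lay just under wild type replicate 1, and CD44 KO replicate 2 was the lowest by far (log2 fold change -2.01 with an SE of 0.89, edgeR adjusted p 0.181). Without CD44 KO replicate 1 both were called by edgeR, Irf8 at -2.73 and Irf5 at -3.32. The macrophage markers followed the same order of CD44 KO libraries: 15 of 15 had negative log2 fold changes (median -2.05), 1 of them called (Marco), none was at 0 in any library, and the sum ran from 279.6 to 4227 CPM in CD44 KO and from 3776 to 8717 CPM in wild type. Their part in the Irf5 and Irf8 values was not tested, nor was that of the fibroblast and dendritic cell markers given above.

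Irf7 and Irf3, which induce the type I interferon genes, had slightly higher values in CD44 KO. Irf7 is itself an interferon target. Irf7 had 26.8, 31.1 and 28.3 CPM in CD44 KO replicates 1 to 3, against 23.2, 19.7 and 21.6 CPM in wild type replicates 1 to 3. The libraries of a group lay close together and the groups did not overlap (log2 fold change 0.42 with an SE of 0.14, edgeR adjusted p 0.115). Irf3 averaged 46.6 ± 10.5 CPM in CD44 KO and 34.5 ± 0.402 CPM in wild type (SD, n = 3 each), again without overlap, and its log2 fold change of 0.43 was 0.23 without CD44 KO replicate 3. Irf9, the DNA-binding partner in the type I complex, and Irf4, a factor of lymphocytes and macrophages, overlapped between the groups, with log2 fold changes of 0.19 and 0.40. Both were highest in CD44 KO replicate 2 and turned to -0.14 and -0.44 without it. Irf1, a direct target of interferon gamma signalling, had 48.6, 46.2 and 93.8 CPM in CD44 KO, against 50.4, 34.8 and 38.9 CPM in wild type, with CD44 KO replicate 3 standing above the rest.

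Of the IRF2-binding proteins Irf2bp1, a corepressor, had the lowest p. Irf2bp1 had 24.3, 29.9 and 31.7 CPM in CD44 KO replicates 1 to 3, against 18.7, 20.1 and 17.8 CPM in wild type replicates 1 to 3. CD44 KO lay above wild type in every library (log2 fold change 0.60 with an SE of 0.16, edgeR adjusted p 0.0798), and DESeq2 called it. Irf2bpl and Irf2bp2 had log2 fold changes of 0.31 and -0.14, with overlap.

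Isg20, which encodes an RNA exonuclease, was high in a single library. Isg20 had 13.6, 172 and 19.1 CPM in CD44 KO replicates 1 to 3, against 11.7, 4.42 and 10.4 CPM in wild type replicates 1 to 3. Its log2 fold change of 2.95 (edgeR adjusted p 0.130) was 0.89 without CD44 KO replicate 2. CD44 KO replicate 2 is also the library with epididymis transcripts. Of 8 epididymis markers 2 were tested, and their summed level ran from 6.603 to 10830 CPM in CD44 KO and from 0.7543 to 1.357 CPM in wild type. Lcn5 had 1297 counts in CD44 KO replicate 2 and 0 in every other library, and Lcn9 had 0 in all. The part of these transcripts in the Isg20 value was not tested.

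**Figure D3:**
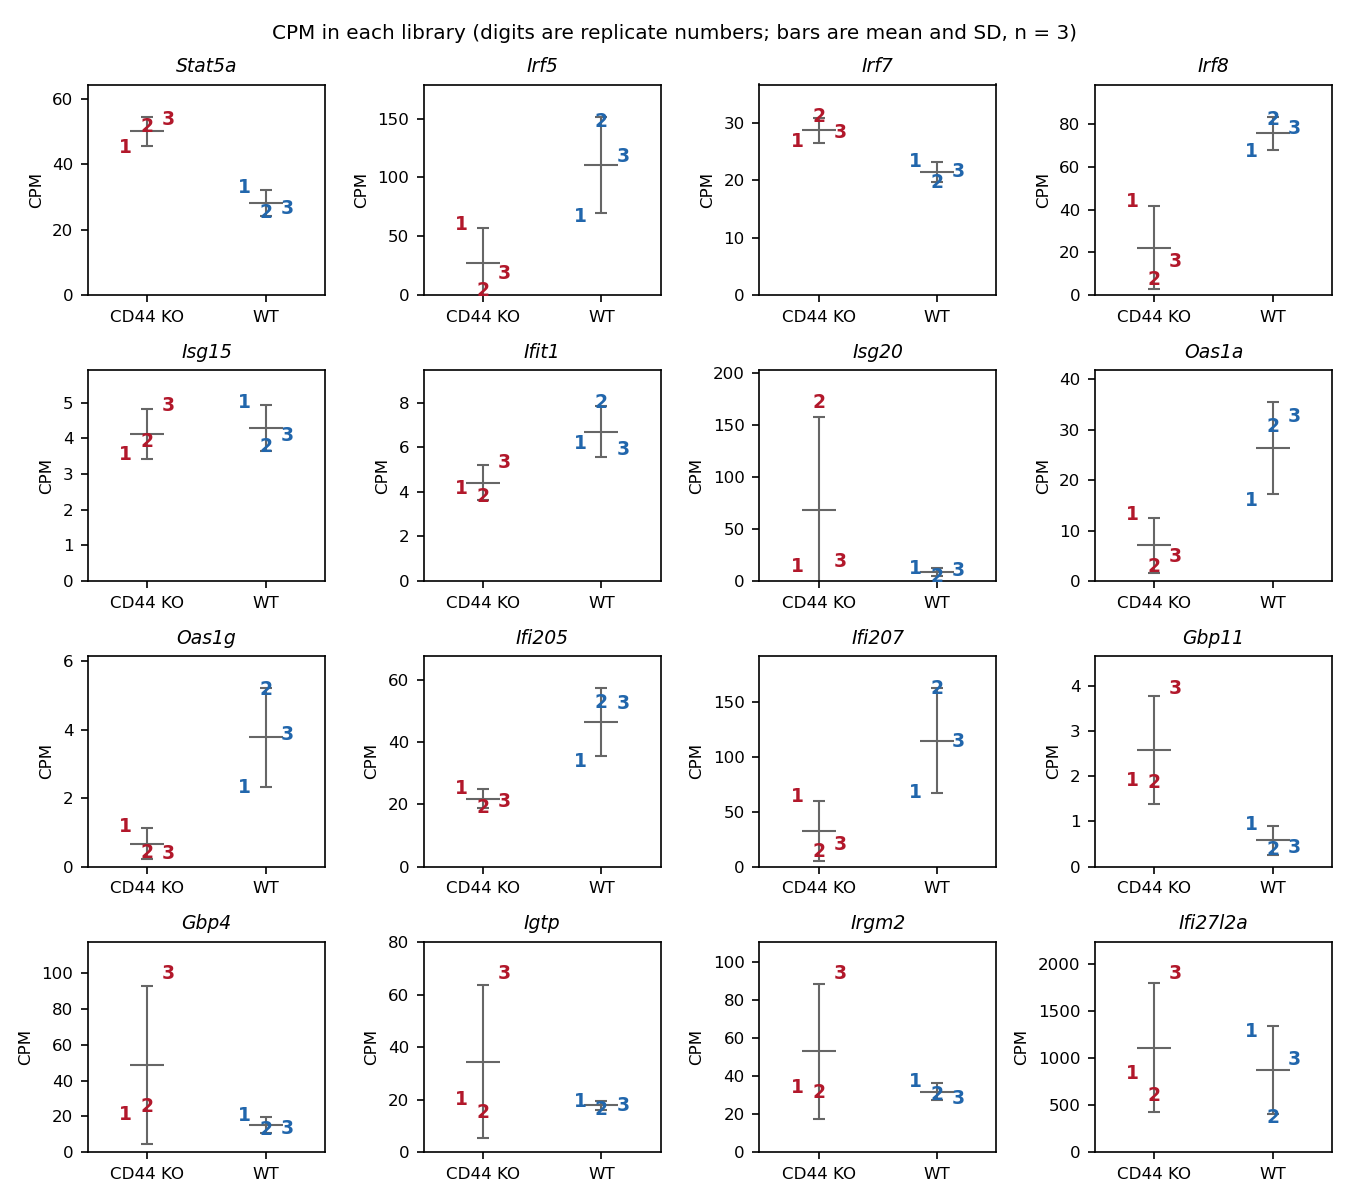
CPM (y axis, linear from 0) of 16 interferon genes in each library, CD44 KO left in red and WT right in blue; digits are replicate numbers, bars the mean and SD over 3 libraries, cut at 0. Stat5a, Irf5, Irf7, Irf8, Ifit1, Oas1a, Oas1g, Ifi205, Ifi207, Isg20, Gbp11 and Gbp4 show no overlap between the groups. The 16 genes are a selection: of all 75 members 30.7% did not overlap, against 37.8% of all genes tested. Isg20 is high in CD44 KO 2, and Gbp4, Gbp11, Igtp, Irgm2 and Ifi27l2a are highest in CD44 KO 3.

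Several of the families that follow, though not all of them, are known for ISRE or GAS elements at their promoters. The 250 bases upstream of the transcription start are shown for 4 members: Isg15 as a type I target with level values, Oas1a and Oas1g as paralogs with low values in CD44 KO, and Igtp as a GTPase gene that was high in CD44 KO replicate 3. The sequences are from RefSeq on GRCm38.p6, written 5′ to 3′ on the strand of the gene. Capitals mark matches to the ISRE core GAAANNGAAA or to the GAS TTCNNNGAA, searched on both strands.
Isg15 (chr4:156200819-156201068, minus strand): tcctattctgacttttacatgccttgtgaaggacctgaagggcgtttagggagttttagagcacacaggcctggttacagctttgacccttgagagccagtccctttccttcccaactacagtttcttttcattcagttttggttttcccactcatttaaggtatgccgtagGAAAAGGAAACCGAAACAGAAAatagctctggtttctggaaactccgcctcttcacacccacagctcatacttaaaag
Oas1a (chr5:120907526-120907775, minus strand): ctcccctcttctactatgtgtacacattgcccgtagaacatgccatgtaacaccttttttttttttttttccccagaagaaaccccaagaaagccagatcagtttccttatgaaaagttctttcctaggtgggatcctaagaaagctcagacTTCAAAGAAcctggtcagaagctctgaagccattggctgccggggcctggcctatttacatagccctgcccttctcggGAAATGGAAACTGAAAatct
Oas1g (chr5:120887614-120887863, minus strand): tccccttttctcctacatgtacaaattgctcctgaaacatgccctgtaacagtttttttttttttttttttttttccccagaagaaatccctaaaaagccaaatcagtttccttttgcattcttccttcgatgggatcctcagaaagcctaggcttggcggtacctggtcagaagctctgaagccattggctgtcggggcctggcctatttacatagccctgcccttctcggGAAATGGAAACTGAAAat
Igtp (chr11:58199306-58199555, plus strand): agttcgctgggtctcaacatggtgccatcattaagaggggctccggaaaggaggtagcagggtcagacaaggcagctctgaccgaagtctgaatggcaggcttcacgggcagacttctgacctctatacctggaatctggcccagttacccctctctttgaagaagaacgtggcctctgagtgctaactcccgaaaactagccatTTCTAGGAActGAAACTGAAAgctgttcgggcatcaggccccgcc

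Isg15 holds 3 ISRE matches that overlap each other, beginning 78, 72 and 66 bases upstream of the start. Oas1a and Oas1g hold the same pair of overlapping ISRE matches, GAAATGGAAA and GAAACTGAAA, beginning 20 and 14 bases upstream in Oas1a and 18 and 12 bases upstream in Oas1g, and Oas1a has a GAS match at 98 bases besides. Igtp holds a GAS match beginning 45 bases and an ISRE match beginning 34 bases upstream.

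Promoter entries were found for 68 of the 88 members, 83 promoters in all. The ISRE core was present in 39.8% of these against 2.98% of all 32851 promoters, and the GAS in 16.9% against 7.02%. By family the ISRE was found in 83.3% of 6 GBP, 75% of 4 IRG, 72.7% of 11 Ifi200, 66.7% of 9 IFIT and 9.09% of 11 IRF promoters. It was also found in 50% of 8 OAS, 33.3% of 9 single effector, 22.2% of 9 STAT and 11.1% of 9 IFITM promoters. The share was 0% of 4 promoters of other Ifi genes and 0% of 3 IRF2-binding promoters. The 28 tested members with an ISRE match had a median log2 fold change of -0.02 and the 30 without one 0.02. Without CD44 KO replicate 3 these medians were -0.30 and -0.12. The 13 tested members with a GAS match had a median of 0.60, 10 of them above 0, and the 45 without one had a median of -0.10, 19 of them above 0. The median of the 13 without CD44 KO replicate 3 was -0.02, with 6 above 0, and that of the 45 was -0.27, with 12 above 0. A match describes the letters in this window and does not measure binding.

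Isg15, Usp18, Bst2, Rsad2 and Xaf1, classical targets of type I interferon, overlapped between the groups. Isg15 encodes a ubiquitin-like protein that is attached to other proteins after interferon. Isg15 had 3.56, 3.90 and 4.92 CPM in CD44 KO replicates 1 to 3, against 5.01, 3.77 and 4.07 CPM in wild type replicates 1 to 3. The 95% interval of its log2 fold change ran from -0.73 to 0.62. Usp18, the protease that removes ISG15, had a log2 fold change of 0.34 (interval -0.34 to 1.01). Bst2, which tethers budding viruses, had 0.02 (interval -0.61 to 0.65). Rsad2, the antiviral enzyme viperin, and Xaf1, a pro-apoptotic factor, had -0.35 and 0.23 (edgeR adjusted p 0.418 and 0.598). Ifih1, the RNA sensor MDA5, varied little within a group and did not overlap between groups, at 23.6 ± 0.781 CPM in CD44 KO and 27.5 ± 1.31 CPM in wild type (SD, n = 3 each; log2 fold change -0.22, edgeR adjusted p 0.261). Mx1, a dynamin-like antiviral GTPase, was low in all libraries and did not overlap between groups, at 1.33 ± 0.536 CPM in CD44 KO and 2.27 ± 0.587 CPM in wild type (SD, n = 3 each; log2 fold change -0.77, edgeR adjusted p 0.296).

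The IFIT genes, whose proteins bind viral RNA, lie together on chromosome 19. Of 5 tested 4 had negative log2 fold changes and edgeR and DESeq2 called 0, with 0 at an unadjusted edgeR p under 0.05. Ifit1 had 4.16, 3.78 and 5.31 CPM in CD44 KO replicates 1 to 3, against 6.19, 8.03 and 5.90 CPM in wild type replicates 1 to 3. All CD44 KO values lay below the wild type range (log2 fold change -0.60 with an SE of 0.27, edgeR adjusted p 0.178). Ifit3 averaged 25.4 ± 3.85 CPM in CD44 KO and 24.6 ± 5.85 CPM in wild type (SD, n = 3 each), with an interval of the log2 fold change from -0.48 to 0.57. Ifit2 and Ifit1bl1 had log2 fold changes of -0.26 and -0.90. Ifit3 and Ifit3b are near-identical copies, so the split of reads between them is uncertain.

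The OAS family was divided within itself. The active synthetases of this family make oligoadenylates on double-stranded RNA, which activate RNase L, and all 12 genes lie on chromosome 5. GENCODE M21 lists Oas1b as a polymorphic pseudogene. Of 8 tested, Oas1a, Oas1g, Oas3, Oasl1 and Oasl2 had negative and Oas1b, Oas1c and Oas2 positive log2 fold changes. The edgeR test called 0 and DESeq2 3 (Oas1a, Oas1g and Oasl2), which were also the 3 at an unadjusted edgeR p under 0.05. Of all genes DESeq2 called 9.38% lower, and 14.7% were lower at that unadjusted threshold. Oas1g had 1.19, 0.420 and 0.388 CPM in CD44 KO replicates 1 to 3, against 2.30, 5.17 and 3.86 CPM in wild type replicates 1 to 3. It had few reads, 6 to 20 counts in CD44 KO and 39 to 96 in wild type, and the lowest log2 fold change of the 75 members (log2 fold change -2.49 with an SE of 0.60, edgeR adjusted p 0.0716). Oas1a had 13.2, 2.94 and 4.92 CPM in CD44 KO replicates 1 to 3, against 15.9, 30.5 and 32.6 CPM in wild type replicates 1 to 3. CD44 KO replicate 1 came close to wild type replicate 1 without reaching it (log2 fold change -1.90 with an SE of 0.59, edgeR adjusted p 0.104). Without CD44 KO replicate 1 edgeR called both, at -3.20 and -2.75. Oasl2 averaged 13.4 ± 2.42 CPM in CD44 KO and 25.3 ± 7.93 CPM in wild type (SD, n = 3 each; log2 fold change -0.91, edgeR adjusted p 0.0996). The Oas1 genes are close copies of each other, so reads may be split among them with error.

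The Ifi200 family, DNA-binding proteins encoded side by side on chromosome 1 (173468485 to 174031810 in GRCm38 by GENCODE M21), had mostly lower values in CD44 KO. Of 8 tested 7 had negative log2 fold changes. The edgeR test called 0 and DESeq2 4 (Ifi204, Ifi205, Ifi207 and Ifi211), and 5 stood at an unadjusted edgeR p under 0.05, all lower. Of all genes DESeq2 called 9.38% lower, and 14.7% were lower at an unadjusted edgeR p under 0.05. Ifi205 had 25.2, 19.1 and 21.1 CPM in CD44 KO replicates 1 to 3, against 33.8, 52.9 and 52.6 CPM in wild type replicates 1 to 3. Each CD44 KO library lay below each wild type library, and the CD44 KO libraries lay close together (log2 fold change -1.09 with an SE of 0.22, edgeR adjusted p 0.0557). Its log2 fold change stayed between -1.26 and -0.98 when any single library was left out. Ifi207 had 63.9, 13.8 and 20.1 CPM in CD44 KO replicates 1 to 3, against 67.4, 163 and 114 CPM in wild type replicates 1 to 3. Here CD44 KO replicate 1 was near wild type replicate 1 and the other CD44 KO libraries were far lower (log2 fold change -1.82 with an SE of 0.64, edgeR adjusted p 0.125). Ifi211 had 19.9, 8.65 and 12.6 CPM in CD44 KO replicates 1 to 3, against 21.3, 34.0 and 33.2 CPM in wild type replicates 1 to 3. The groups did not overlap (log2 fold change -1.11 with an SE of 0.35, edgeR adjusted p 0.104); Ifi211 overlaps Mndal on the same strand, and the family's copies are similar. Ifi203 and Ifi208 were near 0, at -0.10 and 0.03. The part of the macrophage, fibroblast and dendritic cell markers, whose sums by library are given above, in OAS and Ifi200 values was not tested.

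Of the other Ifi genes, Ifi30 had lower values in CD44 KO. It encodes a lysosomal thiol reductase of antigen-presenting cells. Ifi30 had 149, 41.0 and 26.2 CPM in CD44 KO replicates 1 to 3, against 140.3, 313 and 263 CPM in wild type replicates 1 to 3. CD44 KO replicate 1 lay just above wild type replicate 1, so the groups overlapped (log2 fold change -1.73 with an SE of 0.70, edgeR adjusted p 0.155). Without CD44 KO replicate 1 edgeR called it at -2.83. Ifi27l2a, whose protein is found at mitochondria and the nuclear membrane, had the highest level per transcript length of all members, at 2369 ± 1497 FPKM in CD44 KO and 1925 ± 1034 FPKM in wild type (SD, n = 3 each; fragments scaled by transcript length and depth). In CPM it had 836, 603 and 1893 CPM in CD44 KO, against 1284, 366 and 982 CPM in wild type, which spread as much within as between groups (log2 fold change 0.34, edgeR adjusted p 0.716). Ifi27 came next on the same scale, at 286 ± 63.4 FPKM in CD44 KO and 337 ± 134 FPKM in wild type, followed by Ifitm2 at 224 ± 61.1 FPKM in CD44 KO and 292 ± 38.4 FPKM in wild type. This order held in both groups, although Ifi27 and Ifitm2 differed by less than the SD of Ifi27 in each.

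The guanylate-binding proteins (GBP) and immunity-related GTPases (IRG), which attack the vacuoles of intracellular pathogens and are typical targets of interferon gamma, were high in CD44 KO replicate 3. That library held the highest value of the 6 libraries in 8 of 10 tested GBP genes and in 5 of 5 IRG genes. The edgeR test called 0 of them and DESeq2 called Gbp11 and Gbp4. The same number, 2 GBP genes and 0 IRG genes, stood at an unadjusted edgeR p under 0.05. Among all genes DESeq2 called 9.62% higher, and 16.3% were higher at that unadjusted threshold. Gbp4 had 21.1, 25.4 and 99.4 CPM in CD44 KO replicates 1 to 3, against 20.6, 12.7 and 13.1 CPM in wild type replicates 1 to 3. The gene's log2 fold change of 1.65 (edgeR adjusted p 0.143) was 0.58 without CD44 KO replicate 3. Gbp11 had 1.90, 1.86 and 3.95 CPM in CD44 KO replicates 1 to 3, against 0.943, 0.377 and 0.417 CPM in wild type replicates 1 to 3. All CD44 KO libraries lay above all wild type libraries (log2 fold change 2.14 with an SE of 0.58, edgeR adjusted p 0.0851), and the value was 1.69 without CD44 KO replicate 3. Gbp11 had few reads, 31 to 61 counts in CD44 KO and 7 to 16 in wild type. GENCODE M21 lists it as a polymorphic pseudogene. Gbp2 overlapped between the groups, with 68.4, 54.9 and 121 CPM in CD44 KO, against 104, 53.9 and 73.9 CPM in wild type. Gbp6 had lower values in CD44 KO: 16.6, 11.2 and 33.4 CPM in CD44 KO, against 62.4, 29.4 and 40.2 CPM in wild type. Replicate 3 was again the highest CD44 KO library, and the groups overlapped (log2 fold change -1.11, edgeR adjusted p 0.164). The GBP genes are close copies, and Gbp4, Gbp8 and Gbp9 overlap on the same strand, so reads may be split among them with error.

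The IRG genes showed the single library more plainly still. Igtp had 20.2, 15.1 and 67.9 CPM in CD44 KO replicates 1 to 3, against 19.5, 16.2 and 18.0 CPM in wild type replicates 1 to 3. The log2 fold change of 0.94 (edgeR adjusted p 0.287) was -0.02 without CD44 KO replicate 3. Irgm2 had 33.9, 31.5 and 93.9 CPM in CD44 KO replicates 1 to 3, against 37.2, 30.5 and 28.2 CPM in wild type replicates 1 to 3. Its value of 0.73 was 0.03 without that library, and Irgm2 and Igtp overlap on the same strand. Iigp1 had 21.9, 24.6 and 72.8 CPM in CD44 KO, against 28.8, 18.7 and 25.5 CPM in wild type, and its log2 fold change of 0.71 was -0.07 without CD44 KO replicate 3. Irgm1, a regulator of the other IRG proteins, had 29.2, 24.4 and 50.4 CPM in CD44 KO, against 30.6, 37.3 and 34.0 CPM in wild type. Over all 75 members the median was -0.18 without CD44 KO replicate 3.

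**Figure D4:**
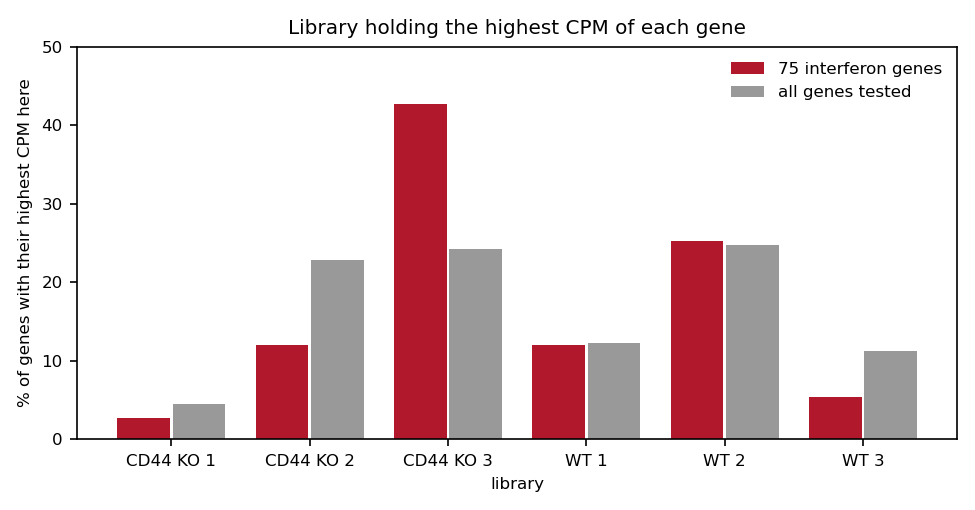
Share of genes (y axis, percent) whose highest CPM lay in each library (x axis), for the 75 interferon genes (red) and for all 13829 genes tested (grey). CD44 KO 3 holds 42.7% of the interferon genes and 24.3% of all genes, and CD44 KO 1 holds 2.67% and 4.52%.

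Further interferon-induced genes outside the set gave no call by edgeR with all libraries either. Of 44 tested 16 had positive and 28 negative log2 fold changes (median -0.28), edgeR called 0 and DESeq2 6, and 3 higher and 8 lower stood at an unadjusted edgeR p under 0.05. Lgals3bp, a secreted glycoprotein, had the lowest p of this list. Lgals3bp had 232, 144 and 206 CPM in CD44 KO replicates 1 to 3, against 448, 363 and 403 CPM in wild type replicates 1 to 3. The groups did not overlap (log2 fold change -1.06 with an SE of 0.23, edgeR adjusted p 0.0591). The edgeR test called 5 of the 44 without CD44 KO replicate 1, where it called 16.8% of all genes in the same fit. DESeq2 with all libraries called 19.0% of all genes, and 31.0% stood at an unadjusted edgeR p under 0.05. CD44 KO replicate 3 held the highest value in 14 of the 44 and wild type replicate 2 in 15. Tgtp1, a GTPase of the IRG class chosen after its values were seen, was highest in CD44 KO replicate 3, with 12.9, 14.7 and 76.9 CPM in CD44 KO, against 11.7, 6.47 and 7.98 CPM in wild type. Socs1, a feedback inhibitor of JAK kinases from the receptor list, also chosen after its values were seen, had 1.42, 1.44 and 4.92 CPM in CD44 KO, against 1.36, 1.08 and 1.10 CPM in wild type.

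Mature adipocyte, B cell and endothelial markers also had their highest sums in CD44 KO replicate 3. The 12 adipocyte markers summed to 41960, 35930 and 55140 CPM in CD44 KO replicates 1 to 3, against 34530, 18400 and 24910 CPM in wild type replicates 1 to 3, with 9 of the 12 highest in CD44 KO replicate 3 and 1 called by edgeR (Cfd, the protease adipsin, higher). The 4 tested of 7 B cell markers summed to 100.1, 19.34 and 194.5 CPM in CD44 KO replicates 1 to 3, against 20.1, 27.91 and 27.13 CPM in wild type replicates 1 to 3. The 8 endothelial markers summed to 864, 1405 and 1670 CPM in CD44 KO, against 1414, 700.6 and 872.9 CPM in wild type. The 14 tested of 15 T and NK cell markers, the cells that make interferon gamma, summed to 18.99, 8.229 and 24.47 CPM in CD44 KO, against 36.08, 16.81 and 30.47 CPM in wild type, so that on this list CD44 KO replicate 3 lay within the wild type range. The part of these 4 marker lists in the GBP and IRG values was not tested.

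The IFITM genes, which block entry of enveloped viruses, had mixed values. Of 5 tested edgeR and DESeq2 called 0, and 1 stood higher at an unadjusted edgeR p under 0.05, where 16.3% of all genes did. Ifitm1 had 2.43, 2.28 and 2.27 CPM in CD44 KO replicates 1 to 3, against 0.943, 0.808 and 1.46 CPM in wild type replicates 1 to 3. The groups did not overlap at these low levels (log2 fold change 1.11 with an SE of 0.40, edgeR adjusted p 0.126). Ifitm3, an abundant member, averaged 99.5 ± 30.1 CPM in CD44 KO and 112 ± 12.3 CPM in wild type (SD, n = 3 each), with CD44 KO replicate 2 the lowest library and an interval of the log2 fold change from -0.76 to 0.42. Ifitm2 and Ifitm10 stood at -0.34 and 0.93 on the log2 scale, with overlap between the groups.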

How the data were processed

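Messenger RNA of epididymal fat was sequenced on a NovaSeq 6000 from 3 CD44 KO and 3 wild type libraries (Trizol extraction, oligo(dT) beads, NEBNext Ultra kit), per the labels' protocols. According to the submitters' processing notes the tools were HISAT2, StringTie (1.3.1), RSEM as well as DESeq2; genome build and strandedness: not given in the sources used here. The authors deposited expected counts with FPKM values for each gene in each library, and a comparison with log2 fold changes, p-values and FDR. Expected counts, between 15543317 and 18765009 per library, were rounded, filtered with filterByExpr (13829 of 22322 genes kept), TMM-scaled and tested across all genes with edgeR 4.0.16 quasi-likelihood (R 4.3.3) without covariates, with Benjamini-Hochberg adjustment. Depth limits a level at 0 counts to the CPM that 3 counts give. Alternatives were DESeq2 1.42.0, its size factors in edgeR, no filter, a replicate block, limma 3.58.1 on log2(FPKM + 1) and log2(FPKM + 0.1) of genes with at least 0.5 FPKM in 3 libraries, and leaving out each library. Library scores used log2 CPM with a prior count of 2. Only the edgeR test was run on simulated counts, with a pass required only where their spread was capped low. That check does not cover libraries as variable as these. Named were, per family, the 3 members with the lowest p and a list of known interferon genes; other names are marked as chosen after their values were seen or are given by count or as called in an alternative. Some members are included in counts and medians but are not reported here by name. The members and gene lists were chosen with earlier results of these data known. Positions are from GENCODE M21 (GRCm38), where all 88 gene IDs were found.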

Additional observations from a re-analysis of the deposited data

How the results depend on the processing

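DESeq2 called 4 members higher and 9 lower in CD44 KO (1 STAT, 1 IRF, 1 IRF2-binding, 3 OAS, 2 GBP, 4 Ifi200 and 1 other Ifi gene), 4 genes of the receptor list, 3 sensors and 6 other interferon-induced genes, and 1476 higher and 1439 lower among all genes. All genes called higher numbered 145 without a filter, and those called lower 221 and 188 with limma on log2(FPKM + 1) and log2(FPKM + 0.1). Same-numbered libraries had correlations of -0.32, -0.22 and -0.02 in their deviations from the group means. These values show no likeness by number, but with 3 libraries per group they cannot exclude a pairing. With a replicate block edgeR called 0 genes higher and 0 lower, and 0 members. Leaving out 1 library at a time, edgeR called 0 to 2 members higher and 0 to 9 lower (0 to 1007 and 0 to 1363 of all genes); by family 0 to 1 STAT, 0 to 2 IRF, 0 to 1 IRF2-binding, 0 to 2 OAS, 0 to 4 Ifi200 and 0 to 1 other Ifi genes; by list 0 to 3 receptor genes, 0 to 7 sensors and 0 to 5 other interferon-induced genes; fewer libraries entered these fits. The median log2 fold change of the members tested in the main analysis was 0.03 there. For these members it was 0.00 with DESeq2, 0.01 with its size factors in edgeR, 0.02 without a filter and 0.01 with the replicate block. It was -0.04 with limma on log2(FPKM + 1) and on log2(FPKM + 0.1), and ran from -0.18 to 0.18 over the omissions. Over the 86 members with any count it was -0.03 with DESeq2 and -0.016 without a filter. The medians of all genes in those 2 fits were 0.105 and 0.11. Genes near 0 changed sign. Bst2 was at -0.007 with DESeq2, -0.026 with the block, -0.072 with log2(FPKM + 1) and -0.076 with log2(FPKM + 0.1). Gbp2 was at -0.002 and -0.003 on the FPKM scales, and Irgm1 at -0.035 with the block and -0.067 and -0.074 on the FPKM scales. Over the omissions the log2 fold changes ran from -0.18 to 0.25 for Bst2, -0.33 to 0.36 for Gbp2, -0.47 to 0.13 for Ifi27, -0.29 to 0.73 for Ifi27l2a, -0.062 to 0.27 for Ifit3, -0.419 to 0.028 for Ifitm3, -0.021 to 1.301 for Igtp, -0.072 to 0.998 for Iigp1, -0.44 to 0.77 for Irf4, -0.145 to 0.40 for Irf9, -0.35 to 0.23 for Irgm1, -0.204 to 0.086 for Isg15 and -0.094 to 0.373 for Xaf1. The cause of these shifts was not tested. Low counts limit Oas1g, Mx1, Isg15, Ifitm1, Gbp11, Ifit1bl1 and Ifitm10.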
